A study of Mus musculus with 55 samples.

Results

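The subject here is a group of 9 mouse genes, Fbxw14, Fbxw15, Fbxw16, Fbxw18, Fbxw19, Fbxw20, Fbxw22, Fbxw24 and Fbxw28, which lie side by side on chromosome 9 and are known for expression in oocytes. The members were taken from a list of names and not by a threshold on measured values. That list was, however, chosen with earlier results of these data known. All 9 were found among the 51734 genes of the oocyte count files. Each encodes a protein with an F-box, the motif through which such proteins bind SKP1 in an SCF complex, a ubiquitin ligase built from SKP1, the cullin CUL1 and the RING protein RBX1. WD40 repeats, the second feature of the family, form a propeller that usually holds the substrate to be ubiquitinated. Protein destruction by ubiquitin ligases drives meiotic maturation, in which a fully grown oocyte (FGO) leaves its long arrest, completes the first meiotic division and stops again at metaphase II (MII). Transcription is largely silent over that interval, so that the transcripts stored in the FGO are used and degraded rather than replaced.

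The study examined mice with substitutions in the ADD domain of DNMT3A, a DNA methyltransferase, or of DNMT3L, its cofactor without catalytic activity. The ADD domain reads the unmethylated tail of histone H3. RNA-seq libraries were each made from 1 oocyte: 18 wild-type FGOs, 8 FGOs of the genotype Dnmt3a+/+Dnmt3LD124A/D124A (Dnmt3L-ADD), 8 of the genotype Dnmt3aADA/ADADnmt3L+/+ (Dnmt3a-ADD), 8 homozygous for both alleles (double mutant) and 10 wild-type MII oocytes. FGOs came from females 10 to 12 weeks old, were released by needle puncture and were washed free of cumulus cells. Age and collection of the sequenced MII oocytes are not stated. For in vitro fertilization, the paper took MII oocytes from females of another age range after inhibin antiserum and human chorionic gonadotropin. Stage can therefore not be told apart from age, hormone treatment and collection in the comparison of MII oocytes with FGOs. A further 3 samples were embryos of embryonic day 9 from double mutant oocytes and a wild-type father. The mutations were carried in the germ line and thus in every cell of the females. They are small substitutions, which gene counts do not show, so the counts cannot check the genotype labels. The labels do not say which oocytes came from which female, and p-values below therefore measure the spread between oocytes.

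The 52 oocyte libraries held between 7832458 and 23739871 counts, with a median of 14410784. Each of the 9 Fbxw genes received 1042 to 15308 counts per library, and together they made up 0.186% to 0.363% of all counts of a library. Each of the 14 oocyte markers examined had counts in every oocyte group. Per library they summed to between 9226 and 16632 CPM (counts scaled to a common library total), so the defining markers of the labelled cell type were present as a set. The read summary given with the study sets the libraries apart by the share of reads that mapped to the genome, in 2 classes that do not overlap: 22 oocyte libraries had a lower share and 30 a higher share. Of the wild-type FGOs, 8 were in the lower and 10 in the higher class, and of the MII oocytes 3 and 7. Of the Dnmt3a-ADD FGOs, 3 were in the lower class and 5 in the higher. All 8 Dnmt3L-ADD FGOs were in the higher class and all 8 double mutant FGOs in the lower, so genotype and class cannot be told apart between those groups.

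The 9 members belong to a run of 15 Fbxw genes on the minus strand between positions 109139447 and 109790670 of chromosome 9 (mm10), 651 kb in all. In the order of the coordinates the run reads Fbxw21, Fbxw13, Fbxw20, Fbxw14, Fbxw28, Fbxw22, Fbxw16, Fbxw19, Fbxw23, Fbxw15, Fbxw24, Fbxw25, Fbxw18, Fbxw26 and Fbxw27. The members themselves run from Fbxw20, which starts the stretch at chr9:109217432-109234754, to Fbxw18 at chr9:109676734-109702700. Between them lie Fbxw14 (chr9:109270790-109287676), Fbxw28 (chr9:109322886-109339659), Fbxw22 (chr9:109378400-109404296), Fbxw16 (chr9:109432316-109449140), Fbxw19 (chr9:109476654-109495875), Fbxw15 (chr9:109552602-109568262) and Fbxw24 (chr9:109601116-109626057). Every member had 10 exons and an open reading frame of 464 to 469 codons in the GENCODE M21 annotation of the same build.

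The members are close copies of each other. Coding sequences of the 36 pairs of members were 79.0% to 99.1% identical, with a median of 84.0%. Fbxw14 and Fbxw28 differed at only 13 aligned coding bases (99.1% identity), Fbxw22 was 92.7% identical to Fbxw14 and 92.3% to Fbxw28, and the other 33 pairs lay between 79.0% and 88.7%. A stretch of 120 coding bases within exon 7, coding bases 803 to 922, shows what a read has to tell apart. It was picked as the gap-free window within 1 exon where Fbxw14 and Fbxw28 differ at the most bases, so it is not typical of this pair. The stretch is given for the near-identical pair, for Fbxw22 as their next relative and for Fbxw19 as a more distant member. It is printed on the coding strand, with capitals at the 25 positions where the 4 genes do not all share a base.
Fbxw14 (chr9:109276174-109276293): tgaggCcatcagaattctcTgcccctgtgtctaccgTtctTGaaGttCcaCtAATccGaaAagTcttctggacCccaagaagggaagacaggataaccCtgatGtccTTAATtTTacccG
Fbxw28 (chr9:109328257-109328376): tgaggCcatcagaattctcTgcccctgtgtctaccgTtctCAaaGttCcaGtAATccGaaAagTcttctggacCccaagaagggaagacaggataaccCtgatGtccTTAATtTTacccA
Fbxw22 (chr9:109383956-109384075): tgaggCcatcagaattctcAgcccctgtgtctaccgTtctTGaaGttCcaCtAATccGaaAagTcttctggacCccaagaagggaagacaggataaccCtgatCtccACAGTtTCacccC
Fbxw19 (chr9:109483356-109483475): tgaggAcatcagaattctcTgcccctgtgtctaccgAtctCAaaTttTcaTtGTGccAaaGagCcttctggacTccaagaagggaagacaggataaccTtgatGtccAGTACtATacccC
In this window Fbxw28 differed from Fbxw14 at 4 bases, Fbxw22 at 7 and Fbxw19 at 21. For reads of 53 bases, 34.4% of the positions in Fbxw14 and 34.9% of those in Fbxw28 were found in no other annotated transcript, against 75.6% in Fbxw16 and 84.1% to 95.1% in the other 6 members. How reads with several matches were counted is not given in the sources used here, so the separate values of Fbxw14 and Fbxw28 are uncertain and their sum is given beside them. On the opposite strand Gm42756 shares 168 exonic bases with Fbxw15 (11.2% of its exons) and Gm42494 shares 210 with Fbxw16 (11.7%), and reads there cannot be assigned to a strand. Both antisense genes were counted at no more than 1.28 CPM in any wild-type oocyte. How reads on the shared bases were counted is not given, so these values do not show whether Fbxw15 or Fbxw16 lost reads.

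The regions before the start sites are alike as well. RefSeq promoter sequences (GRCm38.p6, 250 bases before to 50 bases after the start) were at hand for 8 of the 9 members, Fbxw22 excepted, and their 250 upstream bases were 82.5% to 97.2% identical over 28 pairs, with a median of 89.5%. All 8 share the 12 bases AAATCTTTGGCC, beginning 26 to 71 bases before the RefSeq start site. This stretch was chosen after the sequences were seen, and it was searched on both strands. It occurs in 13 of 32851 RefSeq promoters (0.0396%), which belong to 12 genes: the 8 members, the clustered Fbxw21 and Fbxw26, and Gm40505 and Olfr829. The 130 bases upstream of 4 RefSeq start sites are printed 5′ to 3′ on the gene's strand, with the shared stretch in capitals. They are those of the near-identical pair, of the member with the highest level and of the member with the largest stage difference. For the last, Fbxw19, the RefSeq start lies inside the gene coordinates given above, and so do the last printed bases.
Fbxw14 (chr9:109287677-109287806): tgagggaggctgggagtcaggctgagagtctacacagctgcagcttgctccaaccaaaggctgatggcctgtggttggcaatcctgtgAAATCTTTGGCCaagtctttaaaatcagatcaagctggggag
Fbxw28 (chr9:109339660-109339789): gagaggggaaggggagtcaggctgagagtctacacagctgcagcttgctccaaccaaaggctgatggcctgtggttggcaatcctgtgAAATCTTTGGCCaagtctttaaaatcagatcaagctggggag
Fbxw24 (chr9:109626060-109626189): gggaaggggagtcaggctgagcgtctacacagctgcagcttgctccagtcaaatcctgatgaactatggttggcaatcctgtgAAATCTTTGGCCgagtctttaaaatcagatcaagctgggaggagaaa
Fbxw19 (chr9:109495855-109495984): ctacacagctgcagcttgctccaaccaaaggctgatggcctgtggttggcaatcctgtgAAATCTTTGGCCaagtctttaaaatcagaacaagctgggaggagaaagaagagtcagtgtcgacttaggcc
The E-box CAGCTG, also noted after the sequences were seen, was present in all 8 promoters and in 16.3% of all promoters. Of 6 other motifs searched on both strands, TAATTA (5.29% of all promoters), TAATTG (8.0%), CACCTG (20.2%), TATAAA (13.6%) and TGACGTCA (1.79%) were in none of the 8, and CCAAT (37.4%) was in Fbxw16 alone. These matches describe letters in the window and say nothing about binding of a factor.

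In wild-type FGOs all 9 genes were well expressed. Fbxw24, which has been linked to meiotic prophase in female mice, had the highest level, with a lowest, median and highest value of 684, 751 and 897 CPM over the 18 oocytes. Fbxw15, a receptor known to target the histone acetyltransferase KAT7, followed with 427, 482 and 641 CPM. No oocyte had Fbxw15 above Fbxw24. The substrates of the other members are less well known. Fbxw18 stood at 267, 361 and 493 CPM, and Fbxw19 at 297, 329 and 392 CPM. These 2 genes overlapped widely in CPM. Fbxw28 ranged from 238 to 321 CPM around a median of 273, and Fbxw16 from 167 to 262 CPM around 215. The lowest levels were those of Fbxw20 (149, 195 and 248 CPM), Fbxw14 (146, 173 and 207 CPM) and Fbxw22 (125, 148 and 199 CPM), whose ranges overlapped each other. Fbxw14 and Fbxw28 together stood at 387, 443 and 526 CPM.

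Levels of different genes can only be ranked per length of transcript. With the exon lengths of the count files, the mean level per kilobase in wild-type FGOs was 516 ± 40.5 (SD, n = 18) CPM per kb for Fbxw24, 333 ± 39.9 for Fbxw15 and 247 ± 40.8 for Fbxw18, and in each of the 18 oocytes the 3 genes had this order. Fbxw28 (140 ± 10.8), Fbxw16 (120 ± 11.4) and Fbxw19 (96.5 ± 8.60) came next. With these lengths the remaining 3 were not separated beyond their spread: Fbxw14 at 82.8 ± 8.92, Fbxw22 at 82.4 ± 10.8 and Fbxw20 at 81.1 ± 10.4 CPM per kb, with Fbxw14 above Fbxw22 in 11 of 18 oocytes and Fbxw22 above Fbxw20 in 10. Ranks below the third depended on the length used. The exons of Fbxw19 in the files sum to 3487 bases, but its main coding transcript has 1483. Per kilobase of the latter, Fbxw19 moved from the sixth place to the fourth with 227 ± 20.2 CPM per kb. The 3 lowest members were then set apart: Fbxw20 at 130 ± 16.7 CPM per kb was above Fbxw14 (98 ± 10.6) in 17 of 18 oocytes, and Fbxw14 above Fbxw22 (82.4 ± 10.8) in all 18. Fbxw24, Fbxw15 and Fbxw18 led under both lengths. The places of Fbxw14 and Fbxw28 among the 9 are uncertain under either length. Only 34.4% and 34.9% of their 53-base positions are unique, and how multiply matched reads were counted is not given.

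Transcripts of the cluster were lower in MII oocytes than in FGOs, and the members fell into unlike sizes of difference. Of the 9 genes, 7 were lower in wild-type MII oocytes than in wild-type FGOs (edgeR quasi-likelihood test, adjusted p under 0.05 over 15784 genes), where 22.6% of all genes tested were lower. Differences past 2-fold were found in none of the 9, against 9.20% of all genes in either direction. The median log2 difference of the members was −0.30, beside −0.05 over all genes. Their summed level was 2622, 2915 and 3611 CPM (lowest, median, highest) in FGOs and 1926, 2137 and 2477 CPM in MII oocytes, which do not overlap.

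**Figure D1:**
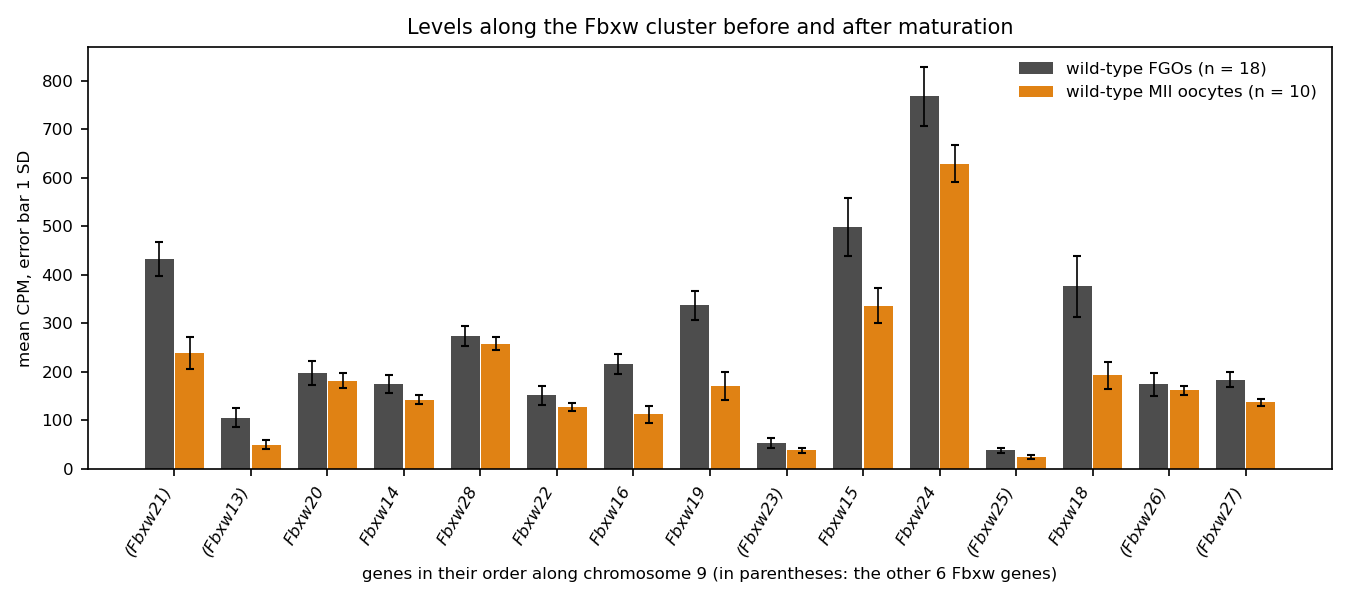
Mean level (CPM, vertical axis) of the 15 Fbxw genes in their order along chromosome 9 (horizontal axis) in 18 wild-type FGOs (dark bars) and 10 wild-type MII oocytes (orange bars). Error bars are 1 SD, and names in parentheses are the other 6 Fbxw genes of the run. The orange bar is lower for all 15 genes, by the most for Fbxw21, Fbxw13, Fbxw16, Fbxw19 and Fbxw18 in proportion.

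The 4 members with the largest differences were Fbxw19, Fbxw18, Fbxw16 and Fbxw15. Fbxw19 stood at 297, 329 and 392 CPM in FGOs and at 135, 168 and 225 CPM in MII oocytes, a log2 difference of −0.98 (SE 0.06, adjusted p = 1.6e-19). Fbxw18 went from 267, 361 and 493 CPM to 155, 190 and 252 CPM (log2 difference −0.96, SE 0.08, adjusted p = 2.2e-15). For both genes the highest MII oocyte lay below the lowest FGO. Fbxw16 was at 167, 215 and 262 CPM in FGOs and at 81.0, 110 and 146 CPM in MII oocytes (−0.95, SE 0.06, adjusted p = 1.6e-19), and Fbxw15 at 427, 482 and 641 against 286, 338 and 410 CPM (−0.57, SE 0.06, adjusted p = 5.8e-11). These 2 genes did not overlap between the stages either. The share of all genes without overlap between the stages was not counted. In percent, the fitted level of Fbxw19 fell by 49.3%, that of Fbxw18 fell by 48.6%, that of Fbxw16 fell by 48.1% and that of Fbxw15 fell by 32.5%.

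The other 5 members differed less. Fbxw24 was at 684, 751 and 897 CPM in FGOs and at 589, 622 and 703 CPM in MII oocytes (log2 difference −0.29, SE 0.04, adjusted p = 7.8e-07). Fbxw14 had 146, 173 and 207 CPM before and 130, 143 and 156 CPM after maturation (−0.30, SE 0.05, adjusted p = 3.7e-06). Ranges of both genes overlapped between the stages although the test was passed. Fbxw22 was at 125, 148 and 199 CPM in FGOs and 111, 130 and 139 CPM in MII oocytes (−0.25, SE 0.06, adjusted p = 0.00073). Fbxw20 and Fbxw28 did not pass the test. Fbxw20 had 149, 195 and 248 CPM in FGOs and 153, 180 and 203 CPM in MII oocytes, with a log2 difference of −0.12 (95% interval −0.24 to −0.00034, adjusted p = 0.11). Fbxw28 had 238, 273 and 321 against 230, 258 and 279 CPM, a difference of −0.08 (95% interval −0.18 to 0.02, adjusted p = 0.18). The MII oocytes of both lay almost entirely within the range of the FGOs. For the sum of Fbxw14 and Fbxw28, which does not depend on how reads were divided between them, the values were 387, 443 and 526 CPM in FGOs and 360, 404 and 421 CPM in MII oocytes.

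The stage comparison held within both classes of mapped reads. Among libraries of the higher class, 7 members were lower in MII oocytes (26.5% of all genes called in either direction, median of the members −0.21), and these were the 7 named above. Among libraries of the lower class, with 3 MII oocytes and 8 FGOs, 6 were lower (10.3% of all genes called, median −0.47). There Fbxw22 missed the threshold (adjusted p = 0.059), and Fbxw18, Fbxw16 and Fbxw19 passed 2-fold with log2 differences of −1.26, −1.22 and −1.21. Markers of some other ovarian cells also differed between the stages. The 12 granulosa or cumulus cell markers summed to 120 to 314 CPM in wild-type FGOs and 101 to 133 CPM in MII oocytes, and 9 of the 12 were lower in MII oocytes. Amh was at 0 in all 10, while Cyp19a1 had a mean of 25.0 CPM in FGOs and 24.5 CPM in MII oocytes. The 9 theca or stroma markers summed to 4.28 to 29.7 CPM in FGOs and 0.67 to 2.71 CPM in MII oocytes. The 8 blood or endothelium markers summed to 59.3 to 99.6 and 79.4 to 97.3 CPM, and 0 of the 3 tested were called. The part of these markers in the Fbxw differences was not tested. CPM are shares of a library, so the amount of RNA per oocyte was not measured.

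A ratio of 2 genes within the same library does not depend on the scaling of that library. Of the 36 pairs of members, 16 (44.4%) had ratios that did not overlap between wild-type FGOs and MII oocytes. Over all 2804896 pairs of the 2369 genes that had at least 1042 counts, the lowest value of a member, in every wild-type oocyte, the share was 3.31%. The split below, between Fbxw15, Fbxw16, Fbxw18 and Fbxw19 on one side and the other 5 members on the other, was drawn after the values were seen and is a description. The other 6 Fbxw genes of the run are not part of it. Their stage differences, from −1.08 to −0.10, spanned both sides. Of the 20 pairs with 1 gene on each side, 15 did not overlap, as did 1 of the 6 pairs among the 4 (Fbxw15 with Fbxw19) and 0 of the 10 pairs among the 5. Fbxw19 over Fbxw28 is one such pair across the sides, with a log2 ratio of 0.17, 0.29 and 0.46 (lowest, median, highest) in FGOs and −0.94, −0.62 and −0.16 in MII oocytes. The log2 ratio of the summed counts of the 4 over those of the 5 was −0.24, −0.14 and 0.01 in wild-type FGOs and −0.86, −0.75 and −0.48 in MII oocytes. The mutant FGOs stayed within or beside the wild-type FGOs in this ratio: −0.20 to −0.02 in Dnmt3L-ADD, −0.22 to −0.04 in Dnmt3a-ADD and −0.28 to −0.11 in double mutant FGOs. None of the 42 FGOs overlapped with any MII oocyte.

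**Figure D2:**
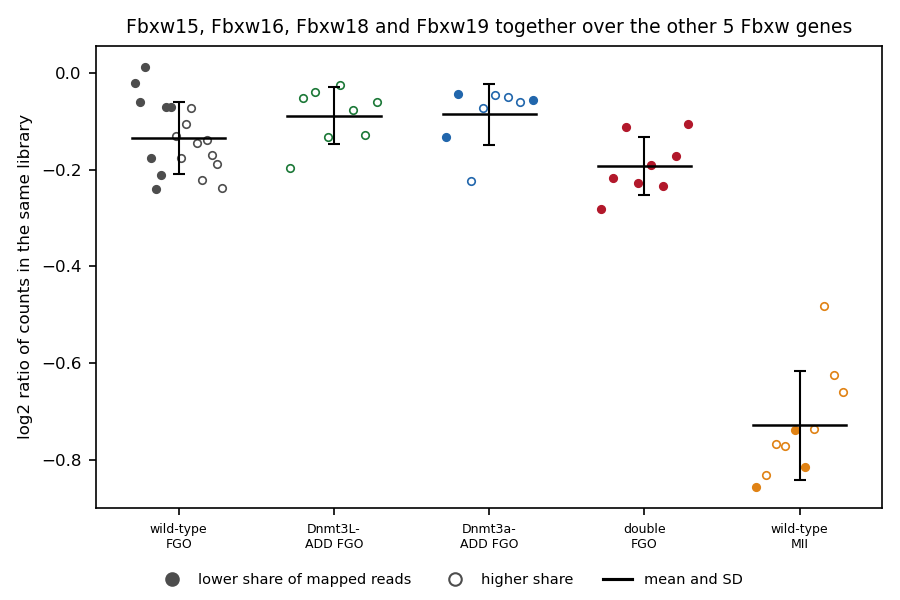
Log2 ratio (vertical axis) of the summed counts of Fbxw15, Fbxw16, Fbxw18 and Fbxw19 over the summed counts of the other 5 members, one point per oocyte, in the 5 groups (horizontal axis). Filled points are libraries with a lower share of mapped reads, open points those with a higher share, and the bars are the mean and 1 SD. The 10 MII oocytes lie between −0.86 and −0.48, below all FGOs of the 4 genotypes. The genes were split by their stage differences after these were seen.

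Before the genotypes are compared, the classes of mapped reads have to be set out, because the same genes differed between them. Among wild-type FGOs the summed level of the 9 members was 2836, 3204 and 3611 CPM in the 8 libraries of the lower class and 2622, 2844 and 2987 CPM in the 10 of the higher class. Every member had a lower mean in the higher class, and 6 of them passed the test (Fbxw14, Fbxw16, Fbxw18, Fbxw19, Fbxw22 and Fbxw24), where 27.7% of all genes were called in either direction. Fbxw18 differed the most, at 434 ± 35.5 (SD, n = 8) CPM in the lower and 329 ± 27.9 (SD, n = 10) CPM in the higher class, a log2 difference of −0.40 (SE 0.06, adjusted p = 7.0e-06 by edgeR). Values over all libraries are therefore followed by those within a class.

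**Figure D3:**
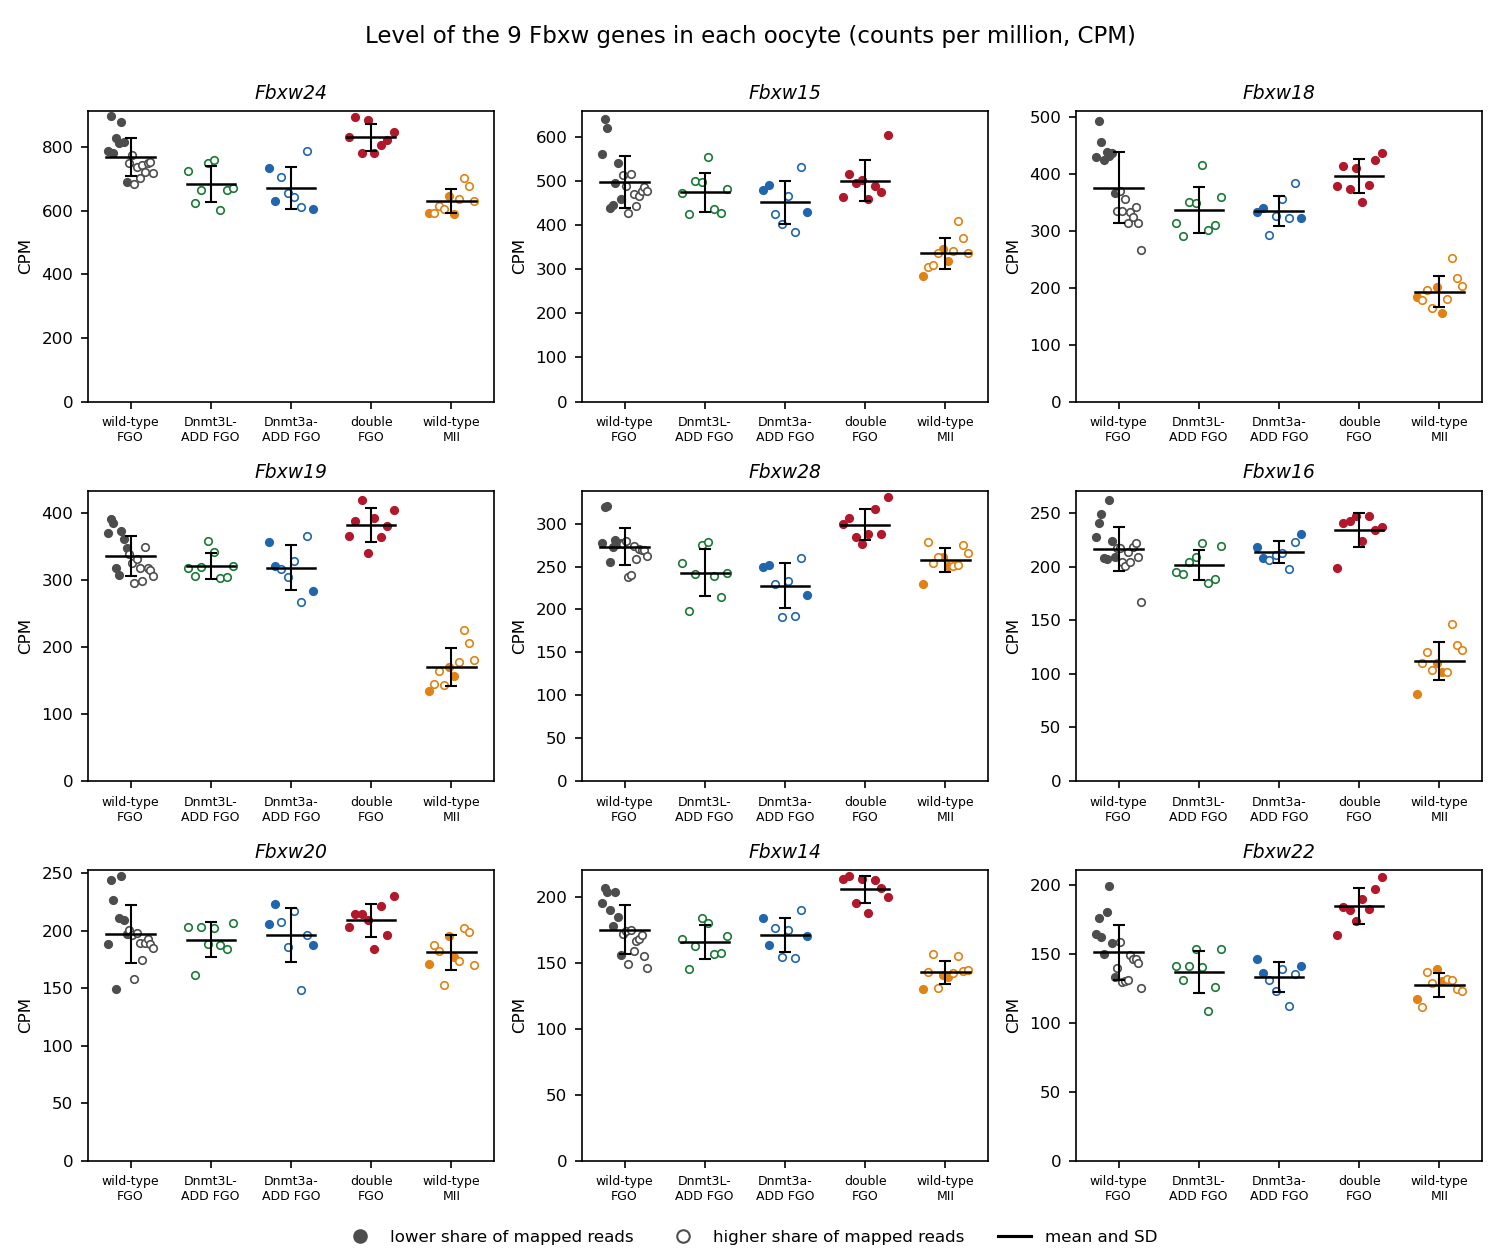
Level of each member (CPM, vertical axis from 0) in each oocyte of the 5 groups (horizontal axis), with 1 panel per gene. Filled points are libraries of the lower class of mapped reads and open points of the higher class, and the bars are the mean and 1 SD. With both classes pooled, double mutant FGOs, all filled, have the highest mean in every panel, and MII oocytes the lowest in all panels except that of Fbxw28.

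No member passed 2-fold in any of the 3 mutants against the wild type, and the fitted log2 differences ran from −0.26 (Fbxw28 in Dnmt3a-ADD FGOs) to 0.28 (Fbxw22 in double mutant FGOs). Over all libraries, these values of Fbxw28 and Fbxw22 were larger in size than the stage differences of the same genes (−0.08 and −0.25). Within the lower class this turned for Fbxw22, at 0.15 in double mutant FGOs and −0.35 in MII oocytes. Fbxw28 kept its order there, at −0.25 in Dnmt3a-ADD FGOs and −0.20 in MII oocytes. Fbxw15, Fbxw16, Fbxw18 and Fbxw19 differed more between the stages than in any mutant. The difference between these contrasts was not tested. The 3 comparisons share the same 18 wild-type FGOs. With both classes pooled, the double mutant had the highest group mean for all 9 genes. Its range overlapped with that of the next group in each case. All double mutants are of the lower class, and the wild-type FGOs of that class had a higher mean for Fbxw15 (526 against 501 CPM) and Fbxw18 (434 against 396 CPM). For Fbxw20 both means were 209 CPM, and for the remaining members the double mutant mean was higher.

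In Dnmt3L-ADD FGOs, 1 member was lower than in wild-type FGOs (3.06% of the 15726 genes tested were lower, and 0.655% passed 2-fold in either direction). This was Fbxw24, with 603, 667 and 758 CPM in the mutant and a log2 difference of −0.17 (SE 0.05, adjusted p = 0.030). The range overlapped with that of the wild type. All 9 differences were below 0, from −0.17 to −0.04, with a median of −0.10 beside −0.03 over all genes. Fbxw28 (198, 242 and 279 CPM) missed the threshold at −0.17 (95% interval −0.29 to −0.06, adjusted p = 0.060), and Fbxw22 was at 108, 141 and 154 CPM (−0.14, adjusted p = 0.18). Within the higher class, to which all 8 Dnmt3L-ADD FGOs belong, none of the 9 passed the edgeR test (9.25% of all genes did), 2 had an unadjusted p under 0.05, and 4 differences were above 0 and 5 below, from −0.12 to 0.04. The call of Fbxw24 was also lost when any 1 of Dnmt3L-ADD replicates 2, 3, 6, 7 or 8 was left out (adjusted p up to 0.092). Over all libraries, 13 of the 14 oocyte markers had a negative difference and 7 were lower, with a median of −0.21, and they summed to 9472 to 12377 CPM against 9672 to 16044 CPM in the wild type. Of the 12 granulosa or cumulus markers 3 were lower (sum 116 to 167 CPM against 120 to 314 CPM), and of the 9 theca or stroma markers 7 could be tested and 1 was lower. Their part in the Fbxw differences was not tested.

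In Dnmt3a-ADD FGOs, 2 members were lower (7.61% of all genes were lower, and 2.05% passed 2-fold in either direction). Fbxw28 was at 191, 231 and 260 CPM, compared with 238, 273 and 321 CPM in the wild type, a log2 difference of −0.26 (SE 0.06, adjusted p = 0.0014). Fbxw24 was at 603, 650 and 787 CPM against 684, 751 and 897 CPM (−0.19, SE 0.05, adjusted p = 0.0067). Both genes overlapped between the groups. Fbxw22 narrowly missed the threshold, with 112, 136 and 147 CPM (−0.18, 95% interval −0.32 to −0.05, adjusted p = 0.052). The other 6 differences ran from −0.17 for Fbxw18 to −0.003 for Fbxw20, and the median over the 9 was −0.14. Within the higher class, Fbxw28 alone passed (−0.25, adjusted p = 0.018, where 9.24% of all genes were called), and 4 of the 9 differences were above 0. Within the lower class, with 3 mutant oocytes against 8, none passed the edgeR test (0.878% of all genes did) and 3 had an unadjusted p under 0.05. All 9 differences were below 0 there, with the largest for Fbxw18 (−0.39, adjusted p = 0.052) and Fbxw24 (−0.30, adjusted p = 0.11), and Fbxw28 was at −0.25 (adjusted p = 0.14). Fbxw14, with which it shares most of its sequence, differed by −0.03 over all libraries. Summed, the pair had 346, 407 and 450 CPM in Dnmt3a-ADD FGOs, against 387, 443 and 526 CPM in the wild type. The oocyte markers moved in the same direction over all libraries: all 14 had a negative difference and 8 were lower, with a median of −0.29, and they summed to 9226 to 11140 CPM. Granulosa or cumulus markers summed to 109 to 217 CPM and 5 of the 12 were lower, while the theca or stroma markers summed to 2.70 to 70.2 CPM, with 1 higher and 1 lower among the 7 tested. Their part in the result was not tested.

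In double mutant FGOs, 3 members were higher than in the wild type (5.51% of all genes were higher, and 1.65% passed 2-fold in either direction). Fbxw22 was at 164, 183 and 206 CPM, compared with 125, 148 and 199 CPM in the wild type (log2 difference 0.28, SE 0.06, adjusted p = 0.0049). Fbxw14 was at 188, 210 and 216 CPM against 146, 173 and 207 CPM (0.22, SE 0.05, adjusted p = 0.0071), and Fbxw19 at 340, 385 and 420 CPM against 297, 329 and 392 CPM (0.18, SE 0.05, adjusted p = 0.023). Every double mutant oocyte lay above the wild-type median of these 3 genes, and all 3 ranges overlapped. Fbxw19 missed the threshold when double mutant replicate 3 or 8 was left out (adjusted p up to 0.065). The other 6 differences ran from 0.0004 for Fbxw15, whose sign turned (−0.004) with the scaling factors of DESeq2, to 0.12 for Fbxw28, and the median over the 9 was 0.11. In Fbxw15 a single double mutant oocyte stood apart at 605 CPM, above a group median of 493 CPM. Set against the 8 wild-type FGOs of their own class, the lower one, the double mutants had 0 members past the edgeR test (0.910% of all genes passed), 2 at an unadjusted p under 0.05, and differences from −0.14 for Fbxw18 to 0.15 for Fbxw22. The 3 calls over all libraries thus did not stand within the class. In these libraries the 14 oocyte markers moved with the Fbxw genes, all 14 with a positive difference and 3 past the test, summing to 13509 to 16632 CPM against 9672 to 16044 CPM in the wild type. Granulosa or cumulus markers summed to 108 to 152 CPM and 8 of the 12 were lower, and the theca or stroma markers summed to 0.98 to 3.09 CPM. The part of these in the result was not tested.

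The members that were called in no mutant against the wild type had these levels (lowest, median and highest CPM). Fbxw15 was at 427, 479 and 555 in Dnmt3L-ADD, 385, 449 and 532 in Dnmt3a-ADD and 460, 493 and 605 in double mutant FGOs. Fbxw18 was at 291, 331 and 416, at 293, 330 and 384 and at 351, 395 and 437 in the same order. All 3 mutants lay largely within the wild-type range of 427 to 641 CPM for Fbxw15 and of 267 to 493 CPM for Fbxw18. Fbxw16 was at 185, 199 and 222 CPM in Dnmt3L-ADD, 198, 212 and 230 CPM in Dnmt3a-ADD and 199, 239 and 248 CPM in double mutant FGOs. Fbxw20 stood at 161, 196 and 207 CPM, at 148, 201 and 223 CPM and at 184, 212 and 230 CPM. For Fbxw16 and Fbxw20, too, the groups overlapped with the wild type in each comparison.

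**Figure D4:**
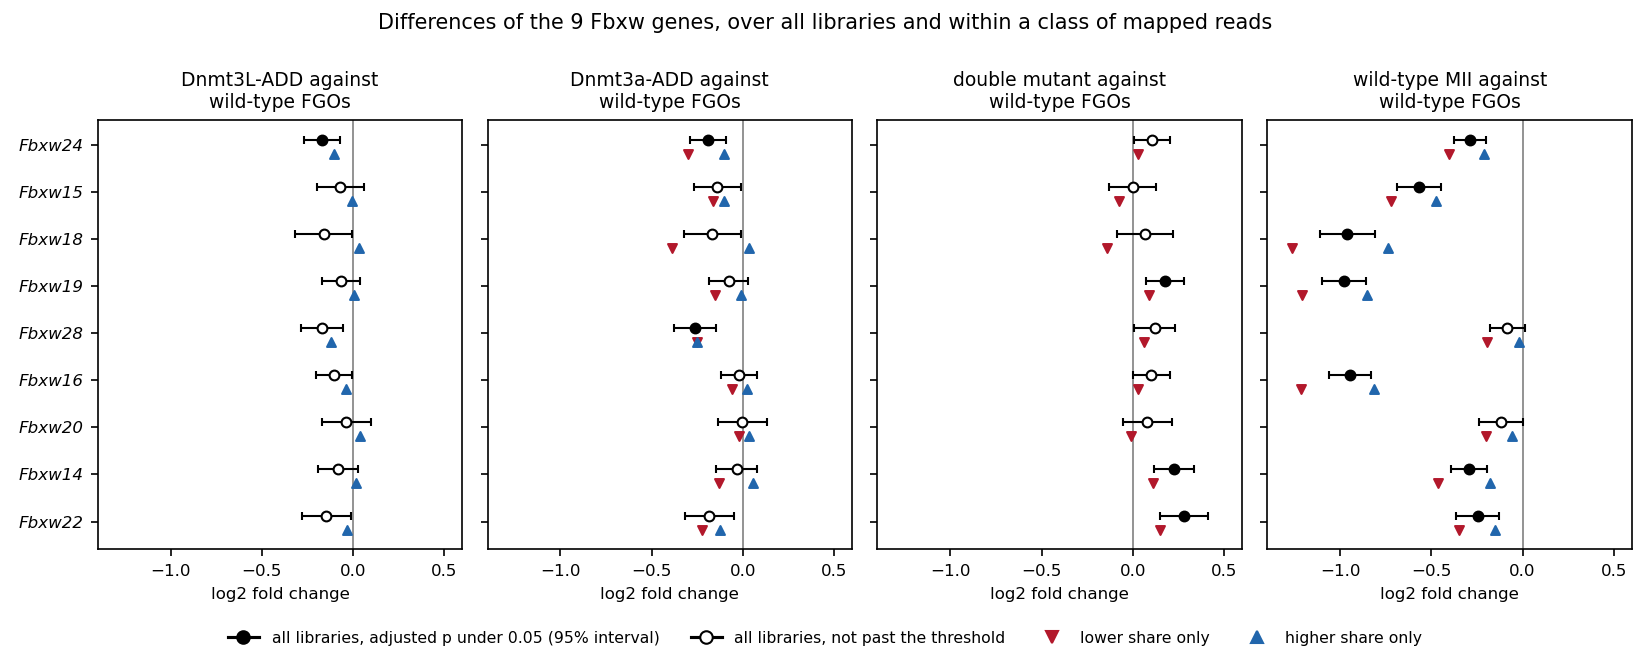
Log2 fold change (horizontal axis) of each member (vertical axis) in the 3 mutants and in MII oocytes, each against the wild-type FGOs. Circles are fitted over all libraries with 95% intervals, filled where the adjusted p was under 0.05, and triangles are fitted within the lower (red) or higher (blue) class of mapped reads. Triangles of the mutants lie between −0.39 and 0.15, while those of Fbxw19, Fbxw18 and Fbxw16 in MII oocytes lie at −0.74 or lower.

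Between the mutants, 7 members passed the test in at least 1 of 3 contrasts. The share of all genes called in at least 1 of them was not counted, so each contrast is given with its own share. Dnmt3a-ADD and Dnmt3L-ADD FGOs were not told apart: 0 of the 9 were called by edgeR, 0 had an unadjusted p under 0.05, 0 were called by DESeq2, and 0.0127% of all genes were higher. The fitted differences ran from −0.09 for Fbxw28 (95% interval −0.22 to 0.04) to 0.08 for Fbxw16 (−0.04 to 0.20). In double mutant against Dnmt3a-ADD FGOs, 6 members were higher (16% of all genes were, and 5.86% passed 2-fold in either direction): Fbxw14, Fbxw18, Fbxw19, Fbxw22, Fbxw24 and Fbxw28. Fbxw22, at 164 to 206 CPM against 112 to 147 CPM, did not overlap (log2 difference 0.46, SE 0.08, adjusted p = 5.4e-05). Fbxw28, at 276 to 332 CPM against 191 to 260 CPM, did not overlap either (0.38, SE 0.07, adjusted p = 7.6e-05). The share of all genes without overlap was not counted here. This contrast could be made within the lower class, with 8 double mutant and 3 Dnmt3a-ADD oocytes, and the same 6 genes passed there (20.7% of all genes were called in either direction). Within that class the differences were 0.39 for Fbxw22, 0.34 for Fbxw24, 0.33 for Fbxw28 and 0.26 each for Fbxw14, Fbxw18 and Fbxw19. With the class as a covariate over all FGOs, 3 of the 6 remained (Fbxw22, Fbxw24 and Fbxw28, where 12.9% of all genes were called), and Fbxw14 (0.16, adjusted p = 0.090), Fbxw19 (0.18, adjusted p = 0.053) and Fbxw18 (0.06, adjusted p = 0.70) missed the threshold. Over all libraries the call of Fbxw18 (0.23, adjusted p = 0.044) was lost in 9 of the settings that leave out 1 oocyte (adjusted p up to 0.082). In this contrast 13 of the 14 oocyte markers were higher, with a median of 0.46 beside 0.25 for the members, and 6 of the 12 granulosa or cumulus markers and 5 of the 7 theca or stroma markers tested were lower. The part of these markers was not tested.

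In double mutant against Dnmt3L-ADD FGOs, 6 members were higher (12.8% of all genes were, and 4.03% passed 2-fold in either direction): Fbxw14, Fbxw16, Fbxw19, Fbxw22, Fbxw24 and Fbxw28. Fbxw24 (780 to 893 against 603 to 758 CPM), Fbxw14 (188 to 216 against 145 to 184 CPM) and Fbxw22 (164 to 206 against 108 to 154 CPM) did not overlap. The log2 differences of these 3 genes were 0.28, 0.31 and 0.43. Here, too, the share of all genes without overlap was not counted. Here 11 of the 14 oocyte markers were higher, with a median of 0.38 beside 0.24 for the members, and again 6 granulosa or cumulus and 5 theca or stroma markers were lower. Since the 2 groups fall in different classes of mapped reads throughout, genotype and class cannot be told apart in this contrast.

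The levels of the members rose and fell together from oocyte to oocyte. Over the 42 FGOs, after the mean of each genotype was taken off, the correlation of log2 CPM over the 36 pairs of members ran from 0.46 (Fbxw20 with Fbxw24) to 0.81 (Fbxw14 with Fbxw24), with a median of 0.62. The near-identical pair Fbxw14 and Fbxw28 had 0.65, inside that range. With the mean of each genotype and class taken off, the range was 0.37 to 0.78 and the median 0.55. These values describe oocytes that share library preparation and scaling, and no test was made.

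The 5 genes whose log2 CPM followed the summed members most closely over the 52 oocytes were E330017A01Rik (Pearson's r 0.94), Elobl (0.93), 9130204K15Rik (0.91), Zp3 (0.91) and Zp2 (0.91), where the median over 15769 genes was 0.056. Zp2 and Zp3 encode proteins of the zona pellucida, the coat of the oocyte, and Elobl is an elongin B-like gene. With the 5 group means taken off, the values were 0.78, 0.75, 0.59, 0.65 and 0.52 in the same order.

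The other 6 Fbxw genes of the run were measured as well. In MII oocytes 5 of them were lower, with a median log2 difference of −0.57 over the 6: Fbxw13 (−1.08), Fbxw21 (−0.86), Fbxw25 (−0.66), Fbxw23 (−0.49) and Fbxw27 (−0.43). In Dnmt3L-ADD FGOs Fbxw13 (−0.33) and Fbxw21 (−0.20) were lower, in Dnmt3a-ADD FGOs the same 2 genes (−0.29 and −0.18), and in double mutant FGOs Fbxw23 (0.30) and Fbxw26 (0.18) were higher. Among the 10 Fbxw genes elsewhere in the genome, which include Btrc and Fbxw11 for the β-TrCP receptors, 2 were lower in MII oocytes (Fbxw10, −0.56, and Fbxw17, −0.21), and the median was −0.13. Of these 10, Fbxw8 was lower in Dnmt3a-ADD FGOs (−0.28), Btrc was lower in double mutant FGOs (−0.21), and none was called in Dnmt3L-ADD FGOs by edgeR. The difference between the 2 sets of genes was not tested.

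Of 16 listed genes for the SCF core and its control, 15 were in the files and 14 were tested. The adaptor Skp1a was at 855, 937 and 1149 CPM in wild-type FGOs and 886, 932 and 993 CPM in MII oocytes, and the scaffold Cul1 at 830, 954 and 1001 CPM and 856, 938 and 972 CPM. Both overlapped almost completely between the stages. In MII oocytes 2 of the 14 were higher (Cand1, the exchange factor for F-box receptors, 0.11, and the ubiquitin-conjugating enzyme Cdc34, 0.13) and 2 were lower (Glmn, an inhibitor that binds RBX1, −0.37, and Uba3, a subunit of the NEDD8-activating enzyme, −0.16). Skp1a was lower in Dnmt3L-ADD (−0.21) and Dnmt3a-ADD FGOs (−0.28), while Cand1 was higher in both (0.12 and 0.13). Cdc34 was lower in Dnmt3a-ADD FGOs (−0.21), and Uba3 was higher in double mutant FGOs (0.16). Of 10 other F-box genes of oocytes or the cell cycle, 4 were higher in MII oocytes, namely Fbxo34 (0.25), Fbxo5 (0.24), Fbxo43 (0.23) and Fbxo11 (0.08), and Fbxo30 was lower (−0.18). Fbxo5 and Fbxo43 encode the inhibitors EMI1 and EMI2 of the anaphase-promoting complex. Of 51 other genes within 500 kb of the run, 21 could be tested, of which 2 were higher and 6 lower in MII oocytes. Cdc25a, a phosphatase of the cell cycle, was the one neighbour with a level like that of the members: it was higher in MII oocytes (0.27), in Dnmt3L-ADD (0.30) and in Dnmt3a-ADD FGOs (0.35).

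The embryo files list reads by parental allele. All 9 members were listed there, and each was at 0 counts for both the maternal and the paternal allele in the 3 embryos. A count of 0 allows up to 3 counts, and only reads that cover a difference between the parental strains can be assigned to an allele, so expression at embryonic day 9 was not detectable in these files rather than shown to be absent.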

How the data were processed

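The authors made each oocyte library with the SMART-Seq HT kit, aligned paired-end reads to mm10 with STAR and deposited whole-number counts per gene, which the paper credits to featureCounts and the labels to HTSeq. SMART-Seq HT primes on the poly(A) tail, so a change of tail length and a change of abundance cannot be told apart in these counts. The annotation release, strand setting and treatment of multiply mapped reads are not given in the sources used here. The embryo table holds counts per parental allele, also deposited by the authors, and 8 further per-sample columns in it were not used. The class of mapped reads was taken from the read summary given with the study.

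CPM were computed on TMM-scaled library totals over 52 oocytes, except those of SCF genes, antisense genes and marker sums, which rest on plain totals. Differences were tested with edgeR 4.0.16 (R 4.3.3, limma 3.58.1) by the quasi-likelihood test, on genes kept by filterByExpr at a minimum count of 10, with Benjamini-Hochberg adjustment over all genes and a threshold of 0.05. FGO contrasts used 42 libraries (15726 genes) and the stage contrast 52 (15784 genes). DESeq2 1.42.0, other scalings and filters, classes, a replicate block and leaving out each oocyte were alternatives. Within-group counts of any 2 oocytes differed beyond sampling noise (chi-square per degree of freedom at least 5.02). The script was tested on simulated data. All 9 members are named, and from each other list at most the called genes with the lowest p. Within-library ratios, the contrast between classes and the shared promoter stretch were chosen after seeing the data, and the members and lists were chosen with earlier results of these data known. Replicate numbers did not pair the oocytes. Sequences were read from mm10 with GENCODE M21 and from RefSeq. Intervals of a count cover counting error only.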

Additional observations from a re-analysis of the deposited data

Results flagged for a closer look

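Fbxw15 in double mutant FGO replicate 8 stood at 605 CPM, the highest of that group, and its gap to the next oocyte (516 CPM) took up a share of 0.617 of the group's whole range, above the 95% critical value of Dixon's test for 8 samples. This was 1 of 36 sets of a gene and a group that were tested, and chance marks about 1 in 20.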

How the results depend on the processing

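No named gene or count reversed its direction while being called. With the settings of the report, members past 2-fold were 0 in each comparison over all libraries, against 1 (Dnmt3L-ADD), 2 (Dnmt3a-ADD), 3 (double mutant), 7 (MII oocytes) and 7 (between mutants) past the adjusted p alone; in MII oocytes the largest log2 difference of a member passed 2-fold with library totals alone (−1.05), with a replicate block (−1.12), against wild-type FGOs of the lower class alone (−1.16) and with both arms of the lower class (−1.26). Calls in the order Dnmt3L-ADD, Dnmt3a-ADD and double mutant against the wild type were 0, 1 and 8 against wild-type FGOs of the higher class alone, where 6.85%, 14.6% and 37.8% of all genes were called, and 6, 7 and 0 against those of the lower class alone, where 22%, 28.8% and 1.43% were. Over all libraries the shares were 6.13%, 15.7% and 12.2%. For the count between mutants, which joins 3 contrasts, the share of all genes was not counted. With both arms of the higher class the calls were 0 (Dnmt3L-ADD) and 1 (Dnmt3a-ADD), and with both arms of the lower class 0 (Dnmt3a-ADD) and 0 (double mutant). With the class as a covariate, 0 Dnmt3L-ADD, 3 Dnmt3a-ADD, 0 double mutant and 3 between-mutant calls were made (4.27%, 16.2%, 2.61% and, for double mutant against Dnmt3a-ADD, 12.9% of all genes); the between-mutant count over 3 contrasts could not be made within 1 class. With a replicate block, although numbers share only a label (residual correlations of same-numbered oocytes −0.61 to 0.54, median −0.03, and 3 of 40 oocytes matched best with their own number), 6 Dnmt3L-ADD, 4 Dnmt3a-ADD, 0 double mutant and 8 MII calls were made (18%, 26.1%, 1.44% and 42% of all genes); the wild-type numbers that the mutants share, 1 to 8, are those of the lower class. Library totals alone gave 2 Dnmt3L-ADD, 4 Dnmt3a-ADD and 9 MII calls (6.45%, 15.3% and 37.5% of all genes). For Dnmt3L-ADD, a minimum count of 50 gave 2 calls (9.09% of all genes). No filter or a fit of the compared groups alone gave 0 there (1.14% and 4.30%). Leaving out 1 oocyte at a time gave 0 to 2 calls for Dnmt3L-ADD (0 without Dnmt3L-ADD replicate 2, 3, 6, 7 or 8, and 2 without its replicates 1, 4 or 5 or wild-type FGO 11 or 12), 2 to 3 for Dnmt3a-ADD, 2 to 3 for the double mutant, 7 throughout for MII oocytes and 6 to 7 between mutants. DESeq2, run without the count filter, gave 1, 2, 3 and 7 calls (3.06%, 6.89%, 5.70% and 17.3% of all genes). The exact test of edgeR gave 1, 3, 3 and 7 (6.85%, 16.6%, 13.7% and 39.5%). The cause of these shifts was not tested. Depth did not limit the members, each of which had at least 1042 counts in every oocyte.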
